A study of Mus musculus with 4 samples.

Results

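The colony-stimulating factors and their receptors are described here as a set of 8 mouse genes in single-cell RNA-seq of brain tumours. The set holds 4 ligands, Csf1 (M-CSF), Csf2 (GM-CSF), Csf3 (G-CSF) and Il34, and 4 receptor chains, Csf1r, Csf2ra, Csf2rb and Csf3r. Members were taken by gene symbol, and all 8 were found among the 31053 genes listed for every library. The study set gliomas of a genetically engineered mouse model that carried mutant IDH1 (mIDH1) beside gliomas of the same model with wild-type IDH1 (wtIDH1), and its title names G-CSF made by mIDH1 glioma stem cells. There were 2 mIDH1 libraries and 2 wtIDH1 libraries. Each came from a C57BL/6 mouse brain tumour, labelled as immune cells infiltrating the tumour at the symptomatic stage. The labels do not give the mice's age, the other lesions of the model, the promoter that drives IDH1, the sort or enrichment of the cells, or whether the libraries of one genotype came from separate mice. The p-values below therefore measure the spread between these libraries, which may be technical. A position letter in the labels is one for both mIDH1 libraries and another for both wtIDH1 libraries, so it cannot be told apart from genotype.

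As background, CSF1 and IL-34 both bind the receptor tyrosine kinase CSF1R, which keeps microglia alive and carries monocytes into macrophages. GM-CSF binds its own alpha chain, CSF2RA, together with the common beta chain CSF2RB, which IL-3 and IL-5 receptors also use, and it acts on dendritic cells, macrophages and granulocytes. G-CSF binds CSF3R, signals mainly through STAT3 and drives the production, release and survival of neutrophils.

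In GENCODE annotation of mm10, Csf3 lies at chr11:98701263-98703629 on the plus strand and Csf2 at chr11:54247271-54249667 on the minus strand. Csf1 lies at chr3:107741048-107760469 (minus) and Il34 at chr8:110741829-110805924 (minus). Among the receptors, Csf1r lies at chr18:61100598-61132149 (plus), Csf2ra at chr19:61223957-61228429 (minus) and Csf3r at chr4:126024550-126044440 (plus). Csf2rb at chr15:78325752-78353847 (plus) has a near-identical neighbour, Csf2rb2, at chr15:78282507-78305721 (minus). Csf2rb2 encodes the mouse beta chain specific to IL-3. The split of UMIs between these paralogs is uncertain.

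The libraries held 29849183 and 20908476 unique molecular identifiers (UMIs, each one captured RNA molecule) in mIDH1, against 23695857 and 22908011 in wtIDH1. After filtering, 3625 and 3490 cells were kept in mIDH1, against 3043 and 2965 in wtIDH1. A class is a group of cells whose cluster was named from marker genes and which each hold at least 2 UMIs of those markers. Clusters and gates were made without the 8 members. Neutrophils numbered 1129 and 1806 in mIDH1 libraries, against 115 and 202 in wtIDH1 libraries. Levels are given as CPM, the UMIs of a gene scaled by all UMIs of that class in that library. They are not corrected for gene length, so levels of different genes are not compared. Between 6 and 25 cell barcodes were shared by any pair of libraries, and 53 barcodes stood in more than 1 library.

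Csf3, which encodes G-CSF, was found mainly in the Nes or Sox2 tumour cells of the mIDH1 libraries. These cells are an incidental catch in an immune cell preparation, with 141 and 109 cells in mIDH1 libraries, against 47 and 58 in wtIDH1 libraries. The class was chosen by Nes and Sox2, so their levels are a description and no check of identity. Nes, a neural stem cell gene, was at 258 and 195 CPM in mIDH1 and 271 and 277 CPM in wtIDH1. Sox2, a stem cell transcription factor, was at 72.7 and 35.4 CPM in mIDH1, against 66.5 and 164 CPM in wtIDH1. Ptprc, the pan-leukocyte gene that encodes CD45 and was no part of the gate, was at 3.77 and 11.7 CPM in mIDH1, against 8.78 and 7.08 CPM in wtIDH1. The labelled cell type is immune, and this class goes against that label.

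The tumour class was not alike in both genotypes. One cluster, led by Rhox5, Clu and Wfdc2, held 120 and 93 of these cells in mIDH1, against 5 and 2 in wtIDH1. Another, led by Hmga2, Sox9 and Tnc, held 0 and 0 in mIDH1, against 14 and 33 in wtIDH1. Of the 11 fixed tumour markers, only 4 were raised in each of these clusters, namely Nes, Sox2, Sox9 and Sox11. In the remaining tumour cluster 3 were raised, namely Nes, Sox9 and Sox11. In the cluster led by Rhox5, 3 neuron markers were raised too. The mean log2 fold there was 1.673 for the neuron markers, against 1.5 for the tumour markers. The cells were also deeper in mIDH1, with a median of 38501 and 32739 UMIs per cell, against 6730 and 13656.5 in wtIDH1. The part of cluster makeup and depth in the tumour cell results below was not tested.

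All kept cells together held 84 and 113 Csf3 UMIs in mIDH1, against 3 and 0 in wtIDH1. Tumour cells held 74 and 96 of these in mIDH1, against 2 and 0 in wtIDH1. This was 88.1% and 85.0% of the Csf3 UMIs of the mIDH1 libraries. Tumour cells made up 3.89% and 3.12% of the kept cells of the same libraries. The Csf3 level in tumour cells was 13.3 and 25.6 CPM in mIDH1, against 2.51 and 0 CPM in wtIDH1. A count of 0 in the second wtIDH1 library allows a level of up to 2.66 CPM.

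Both mIDH1 libraries stood above both wtIDH1 libraries, as did 17.6% of all genes tested in tumour cells. Pooled over libraries, the ratio of the 2 rates was 17.6 (exact 95% interval 4.79 to 146, counting error only). At the mIDH1 rate, 35.1 UMIs would have been counted in the wtIDH1 tumour cells, against the 2 observed. The cluster led by Rhox5 held 74 and 95 of the Csf3 UMIs of mIDH1 tumour cells. In wtIDH1 that cluster held 0 and 0 Csf3 UMIs, in only 5 and 2 tumour cells. The ratio and the expected count therefore set tumour cells of different clusters side by side, and the part of cluster makeup was not tested. In edgeR's quasi-likelihood test on summed counts, the log2 fold change was 4.45 (SE 0.89, adjusted p = 0.0161). Csf3 passed the filter on low counts through the mIDH1 libraries, so it had to differ to enter the test. It was the 1 member called of the 6 tested in tumour cells, where 11.2% of all genes tested were called. Leaving out either the second mIDH1 or the second wtIDH1 library ended the call, and 0 members were then called. An exact permutation test of 2 against 2 libraries cannot go below a p of 0.333.

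**Figure D1:**
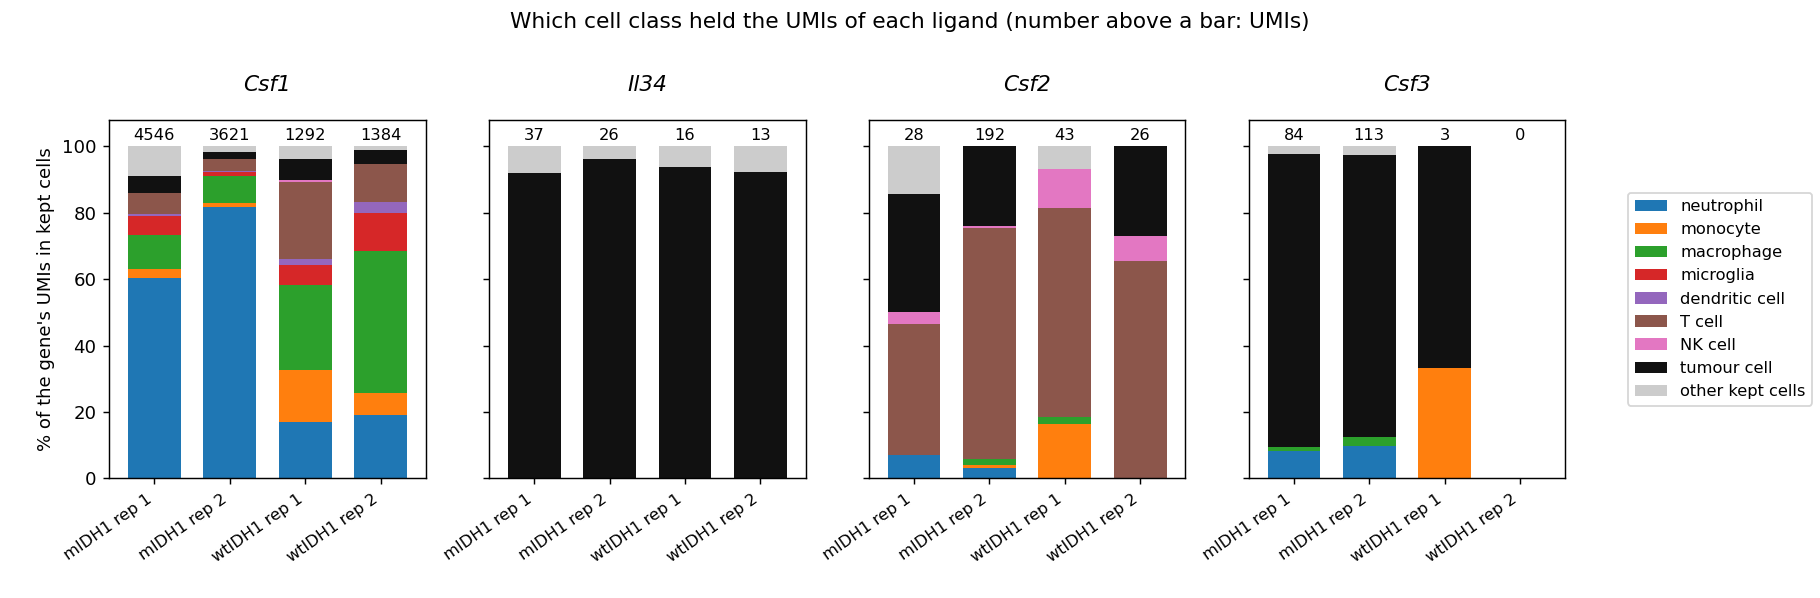
Cell classes that hold the UMIs of each ligand, in percent of the ligand's UMIs in kept cells of each library, with the mIDH1 libraries left of the wtIDH1 libraries. Tumour cells (black) hold 88.1% and 85.0% of the Csf3 UMIs in mIDH1, and neutrophils hold 60.4% and 81.6% of the Csf1 UMIs in mIDH1, against 17.0% and 19.1% in wtIDH1.

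Few tumour cells carried most of the Csf3 transcripts. A Csf3 UMI was found in 13.5% and 20.2% of mIDH1 tumour cells, against 2.13% and 0% of wtIDH1 tumour cells. The cell with the most held 23 and 37 UMIs in the mIDH1 libraries. Without that cell in each library, the levels were 9.15 and 15.7 CPM in mIDH1 and 0 and 0 CPM in wtIDH1. The edgeR adjusted p was then 0.0143, where 10.7% of genes were called. With no UMI left in wtIDH1, Csf3 again entered the test through the mIDH1 libraries and had to differ, so this p is a description.

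Neutrophils, the target cells of G-CSF, held 7 and 11 Csf3 UMIs in mIDH1, in 3 cells of each library, against 0 and 0 in wtIDH1. Their level was 2.92 and 2.54 CPM in mIDH1, and a count of 0 allows up to 12.7 and 8.998 CPM in wtIDH1. A difference in neutrophils was therefore not detectable at this depth. Macrophages held 1 and 3 Csf3 UMIs in mIDH1 and none in wtIDH1. Microglia, dendritic cells, T cells and NK cells held none in any library.

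Free RNA from other cells was measured with genes that tumour cells should lack. S100a8, a neutrophil calprotectin subunit, stood in mIDH1 tumour cells at 0.122% and 0.216% of its neutrophil level. The same share of the neutrophil level of Csf3 comes to 0.00357 and 0.00548 CPM. The measured Csf3 levels in these cells were 13.3 and 25.6 CPM. The neutrophil level of Csf3 was itself lower, at 2.92 and 2.54 CPM, so any share of it had to be lower too.

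Over class-by-library levels of the 8 main classes (32 points), the gene most like Csf3 was Krt18, an epithelial-type keratin, with a Pearson correlation of 0.908. Lhfpl4 followed at 0.863 and Wfdc2, a secreted protease inhibitor, at 0.855. These points share libraries and depth, and the correlation is a description.

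Csf2, the gene for GM-CSF, was sparse and came mainly from T cells and tumour cells. T cells held 11 and 134 Csf2 UMIs in mIDH1, against 27 and 17 in wtIDH1, or 2.68 and 83.9 CPM against 10.0 and 7.03 CPM. One mIDH1 library lay above and the other below both wtIDH1 libraries. In the high library, 2 T cells held 57 and 43 UMIs. Without the 2 highest cells of each library, T cell levels were 1.46 and 21.3 CPM in mIDH1, against 6.30 and 3.31 CPM in wtIDH1. The edgeR log2 fold change of 2.42 (SE 1.10) had an adjusted p of 0.204, and it was -1.49 with the second mIDH1 library left out.

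Tumour cells held 10 and 46 Csf2 UMIs in mIDH1, against 0 and 7 in wtIDH1. Their log2 fold change was 1.29 (SE 1.16, edgeR adjusted p = 0.514). Of the 46 UMIs, 26 stood in 1 cell. Microglia and dendritic cells held no Csf2 UMI. The gene most like Csf2 over the 32 points was Ndfip1, an adaptor of NEDD4-family ubiquitin ligases, at a correlation of 0.771, followed by the chemokine gene Xcl1 at 0.746.

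Csf1, the gene for M-CSF, was highest in neutrophils among the 8 main classes. Its neutrophil level was 1145 and 681 CPM in mIDH1, against 931 and 792 CPM in wtIDH1. The genotypes overlapped, with a log2 fold change of 0.48 (SE 0.32, edgeR adjusted p = 0.466). Microglia came next, at 185 and 138 CPM in mIDH1 and 93.8 and 156 CPM in wtIDH1. T cells were at 69.1 and 78.9 CPM in mIDH1, against 112 and 65.8 CPM in wtIDH1, and overlapped with microglia.

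Macrophages followed at 59.3 and 63.9 CPM in mIDH1 and 51.9 and 65.5 CPM in wtIDH1, a range that ended just below the lowest T cell value. Monocytes were at 50.4 and 20.6 CPM in mIDH1, against 28.5 and 27.7 CPM in wtIDH1. Dendritic cells and monocytes overlapped, and NK cells were lowest, at 0 to 6.51 CPM. Monocytes also held 2296 and 3364 UMIs of the neutrophil gene S100a8 in mIDH1, against 1019 and 263 in wtIDH1. Microglia held 3965 and 909 S100a8 UMIs in mIDH1, against 38 and 46 in wtIDH1. The part of neutrophil RNA in the Csf1 levels of classes other than neutrophils was not tested. Outside the main classes, mast cells or basophils also held Csf1, at 1603 and 566 CPM in mIDH1. The wtIDH1 libraries held only 5 and 1 such cells, at 890 and 961 CPM. The genes most like Csf1 over the 32 points were Plk3, a stress-responsive kinase, at 0.835, and Egr1, an immediate early transcription factor, at 0.800.

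In tumour cells Csf1 was at 40.7 and 19.97 CPM in mIDH1, against 103 and 48.7 CPM in wtIDH1. Both mIDH1 libraries lay below both wtIDH1 libraries. The log2 fold change was -1.01 (SE 0.39), with an edgeR adjusted p of 0.128. Among all genes tested in tumour cells, 44.3% were likewise lower in both mIDH1 libraries.

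Neutrophils held 60.4% and 81.6% of the Csf1 UMIs of the mIDH1 libraries, against 17.0% and 19.1% in wtIDH1. Over all kept cells, Csf1 was at 174 and 191 CPM in mIDH1, against 60.2 and 67.5 CPM in wtIDH1. Both mIDH1 libraries lay above both wtIDH1 libraries, as did 25.1% of all genes. Csf1 rose by 1.71 on the log2 scale (SE 0.20, edgeR adjusted p = 0.0179). Csf1 and Csf3 (log2 fold change 6.11, adjusted p = 0.0233) were the 2 members called of 8 tested over all cells, where 13.8% of genes were called. Csf3 passed the filter on low counts through the mIDH1 libraries here too, so it had to differ to enter the test. Each call was lost when certain libraries were left out. For Csf3 this was the second mIDH1 library (edgeR adjusted p = 0.073), and for Csf1 the first or the second wtIDH1 library (0.0699 and 0.0514). With the neutrophils left out, Csf1 was at 76.1 and 45.7 CPM in mIDH1, against 50.6 and 55.5 CPM in wtIDH1. These ranges overlapped, and the log2 fold change was 0.30 (edgeR adjusted p = 0.304). Csf3, which again entered the test through the mIDH1 libraries, was then the 1 member called, where 20.8% of genes were called. With the tumour cells left out instead, 0 of 6 members tested and 0.00763% of genes were called by edgeR, and 3 members had an unadjusted p under 0.05. Csf1 was then at 211 and 234 CPM in mIDH1, against 58.6 and 68.6 CPM in wtIDH1 (log2 fold change 2.11, edgeR adjusted p = 0.053).

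Il34, the gene of the second CSF1R ligand, was counted almost entirely in tumour cells. They held 34 and 25 UMIs in mIDH1, against 15 and 12 in wtIDH1. All kept cells together held 37 and 26 in mIDH1 and 16 and 13 in wtIDH1. The tumour cell level was 6.10 and 6.66 CPM in mIDH1, against 18.8 and 10.6 CPM in wtIDH1. Both mIDH1 libraries were lower, and the log2 fold change of -0.87 (SE 0.48) had an edgeR adjusted p of 0.267. Over all kept cells the direction was the opposite, with 1.42 and 1.37 CPM in mIDH1, against 0.746 and 0.634 CPM in wtIDH1. The log2 fold change there was 1.19 (SE 0.41, edgeR adjusted p = 0.101). Neutrophils, monocytes, macrophages, microglia, dendritic cells, T cells and NK cells held no Il34 UMI in any library. Plasmacytoid dendritic cells held 1 UMI in each of 2 libraries.

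**Figure D2:**
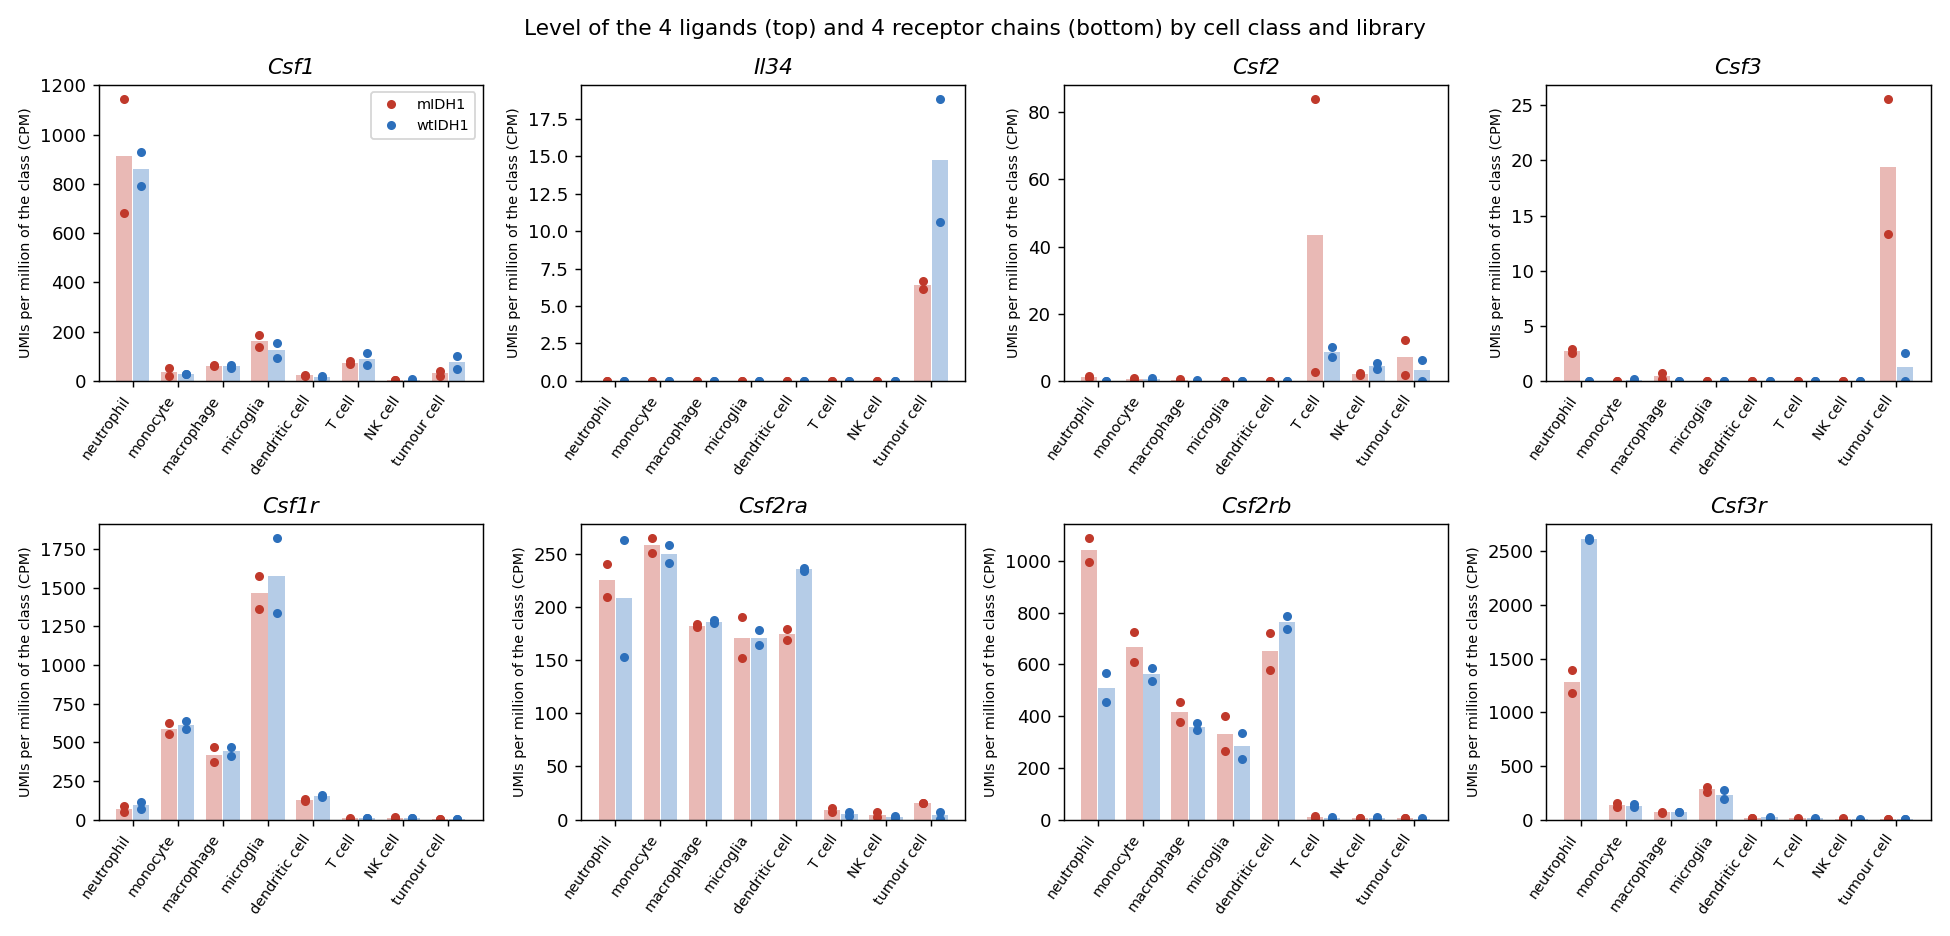
Level of each member (CPM, linear axes that differ between panels) by cell class, with 1 point per library and bars at the mean of each genotype, mIDH1 (red) left of wtIDH1 (blue). Csf1r is highest in microglia, Csf3r and Csf1 in neutrophils, and Csf3 in mIDH1 tumour cells at 13.3 and 25.6 CPM.

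Among the receptors, Csf1r followed the mononuclear phagocytes. Microglia were highest, at 1575 and 1360 CPM in mIDH1 and 1334 and 1822 CPM in wtIDH1. Monocytes were at 623 and 554 CPM in mIDH1 and 637 and 586 CPM in wtIDH1. Macrophages were at 467 and 370 CPM in mIDH1 and 467 and 414 CPM in wtIDH1. The order microglia, monocytes, macrophages, dendritic cells, neutrophils, NK cells had no overlap between neighbouring classes over the 4 libraries. NK cells and T cells overlapped.

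Thinned to 1000 UMIs a cell, a Csf1r UMI was found in 66.1% of microglia on average over libraries, and in 77.2% without thinning. The T cell share, taken as a background of free RNA, was 0.640% thinned and 3.62% unthinned. Microglia had a median of 2232 and 1595.5 UMIs per cell in mIDH1 and 1374.5 and 2535 in wtIDH1. T cells had 5649 and 5088 in mIDH1 and 4067 and 3934 in wtIDH1. The genes most like Csf1r were P2ry6, a microglial nucleotide receptor, at 0.983, and Ctss (cathepsin S) and Aif1 (IBA1), both at 0.975.

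The chains of the GM-CSF receptor were found in every myeloid class. Csf2ra, the alpha chain, ran from 152 to 265 CPM in monocytes, neutrophils, dendritic cells, macrophages and microglia, and neighbouring classes overlapped throughout. NK cells and T cells stayed at 1.82 to 10.7 CPM. Monocytes were at 265 and 251 CPM in mIDH1 and 258 and 242 CPM in wtIDH1. Neutrophils were at 240 and 210 CPM in mIDH1, against 264 and 153 CPM in wtIDH1. Dendritic cells were at 179 and 169 CPM in mIDH1, against 234 and 236 CPM in wtIDH1, with a log2 fold change of -0.21 (SE 0.24, edgeR adjusted p = 0.735).

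Tumour cells held Csf2ra at 15.3 and 15.98 CPM in mIDH1, against 7.53 and 0.885 CPM in wtIDH1. That is 85 and 60 UMIs in mIDH1, against 6 and 1 in wtIDH1. The pooled ratio was 4.28 (exact 95% interval 2.03 to 10.8, counting error only). The log2 fold change was 2.34 (SE 0.66), with an edgeR adjusted p of 0.0503. The share of neutrophil RNA measured by S100a8 comes to 0.294 and 0.453 CPM of Csf2ra in the mIDH1 tumour cells. The share of macrophage RNA measured by the complement gene C1qa comes to 0.366 and 0.238 CPM there, and to 1.10 and 0.770 CPM in the wtIDH1 tumour cells.

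Csf2rb, the common beta chain, was highest in neutrophils of mIDH1 tumours among the 8 main classes. Its neutrophil level was 996 and 1090 CPM in mIDH1, against 455 and 567 CPM in wtIDH1. Both mIDH1 libraries lay above both wtIDH1 libraries, as did 10.6% of all genes tested in neutrophils. The means were 1043 ± 66.4 CPM in mIDH1 and 511 ± 79.3 CPM in wtIDH1 (SD, n = 2 libraries each). The edgeR log2 fold change was 1.51 (SE 0.36, adjusted p = 0.0905), so it did not pass. DESeq2 gave an adjusted p of 0.0045, and edgeR scaled by library totals gave 1.02 with an adjusted p of 0.0206. Other alternatives did not pass. With replicates as a block, cells classed by cluster name alone, a stricter marker gate or at most 5% mitochondrial UMIs, edgeR called 0 of 5 members in neutrophils. Without the low-count filter it called 1 of 7.

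Dendritic cells and monocytes held Csf2rb in both genotypes. Dendritic cells were at 721 and 579 CPM in mIDH1 and 739 and 789 CPM in wtIDH1, with a log2 fold change of -0.01 (SE 0.25). Monocytes were at 725 and 609 CPM in mIDH1 and 536 and 588 CPM in wtIDH1. Macrophages were at 377 and 457 CPM in mIDH1 and 374 and 345 CPM in wtIDH1. Outside the main classes, mast cells or basophils held 2701 and 927 CPM in mIDH1, against 1021 and 2243 CPM in the 5 and 1 such cells of wtIDH1, and plasmacytoid dendritic cells held 602 and 488 CPM in mIDH1, against 610 and 455 CPM in wtIDH1.

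The genotype difference of Csf2rb in neutrophils was set against that in macrophages by an interaction test with the library as a block. It was 1.25 higher in neutrophils on the log2 scale (SE 0.33, edgeR adjusted p = 0.0174). Csf2rb was 1 of 6 members called, where 1.61% of all genes were called. The call was lost when libraries were scaled by totals (0.83, adjusted p = 0.225). Leaving out the second mIDH1 library also ended it (adjusted p = 0.103), as did leaving out the first or the second wtIDH1 library (0.591 and 0.223). Between macrophages and microglia, 0 of 5 members were called by edgeR, where 0.745% of all genes were called, and 0 had an unadjusted p under 0.05. Csf2rb2 in neutrophils was at 153 and 123 CPM in mIDH1, against 80.7 and 75.0 CPM in wtIDH1 (log2 fold change 1.27, SE 0.31, edgeR adjusted p = 0.0953).

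The genes most like Csf2rb over the 32 points were Csf2rb2, at 0.981, and Spi1, at 0.980. Spi1 encodes PU.1, an ETS-family transcription factor of the myeloid lineage known to bind purine-rich sites with a GAGGAA core. RefSeq promoters of the GRCm38.p6 build were therefore searched for GAGGAA or its complement TTCCTC in the 250 bases before the start. This motif was picked after the correlations and sequences had been seen. It was present in 23.3% of 32851 promoters. Csf1r, Csf2rb, Csf3 and Il34 had no entry among these promoters and were not searched. Csf2ra held 2 matches that adjoin, Csf3r held 1 and Csf2rb2 held 1, and Csf1 and Csf2 held none. The windows are shown because these receptors were found together in the myeloid classes. They are written 5′ to 3′ on the gene's strand, with the matches in capitals. The first matching base lies 14, 86 and 167 bases before the RefSeq start, in the order given. By the GENCODE coordinates above, the Csf3r window lies inside the gene, and the Csf2ra window overlaps the start of its gene. The annotations thus place these starts differently.
Csf2ra, chr19:61228419-61228448 (minus): ttcccaacctgcagatGAGGAAGAGGAAgc
Csf3r, chr4:126024561-126024590 (plus): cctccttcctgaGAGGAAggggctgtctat
Csf2rb2, chr15:78305871-78305900 (minus): ctctgtgtctgcTTCCTCcagagaagtcag
A match is a description of the letters and not a binding site.

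Csf3r, the G-CSF receptor, was highest in neutrophils. Its level there was 1391 and 1177 CPM in mIDH1, against 2605 and 2627 CPM in wtIDH1. Both mIDH1 libraries lay below both wtIDH1 libraries, as did 40.5% of all genes tested in neutrophils. The means were 1284 ± 151 CPM in mIDH1 and 2616 ± 15.6 CPM in wtIDH1 (SD, n = 2 libraries each). The edgeR log2 fold change was -0.58 (SE 0.34, adjusted p = 0.407). Scaled by library totals, which moves the median of all genes in neutrophils to -0.43, it was -1.03 with an adjusted p of 0.0107.

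Other classes held less Csf3r. Microglia were at 300 and 262 CPM in mIDH1 and 189 and 276 CPM in wtIDH1. Monocytes were at 158 and 120 CPM in mIDH1 and 145 and 117 CPM in wtIDH1. Macrophages were at 64.0 and 70.6 CPM in mIDH1 and 73.0 and 68.3 CPM in wtIDH1. Neighbouring classes did not overlap in this order, down to T cells and NK cells at 0 to 13.8 CPM.

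Microglia of the wtIDH1 libraries held 155 and 280 Csf3r UMIs with only 38 and 46 S100a8 UMIs. Per 1000 S100a8 UMIs, Csf3r came to 109 and 93.5 in mIDH1 microglia and 4079 and 6087 in wtIDH1 microglia. The same ratio in neutrophils was 63.6 and 22.2 in mIDH1 and 155 and 170 in wtIDH1. The ratio in wtIDH1 microglia was far above that in neutrophils of the same libraries. In mIDH1 microglia it was above its neutrophil counterpart by much less, at 109 against 63.6 and 93.5 against 22.2. The part of neutrophil RNA in the Csf3r level of mIDH1 microglia was not tested. The genes most like Csf3r were Cxcr2, a chemokine receptor of neutrophils, at 0.955, and Acod1 (IRG1), which makes itaconate, at 0.945.

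Neutrophils fell into 3 clusters, which differed in these genes. Cluster 8 was led by Mmp9, Cxcr2 and Egr3, cluster 9 by the granule and secreted protein genes Retnlg, Lcn2 and Wfdc21, and cluster 10 by F3, Hilpda and Ifrd1. Cluster 8 held 434 and 429 cells in mIDH1, against 60 and 131 in wtIDH1. Cluster 9 held 181 and 623 cells in mIDH1, against 24 and 32 in wtIDH1. Cluster 10 held 514 and 754 cells in mIDH1, against 31 and 39 in wtIDH1.

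Csf3r in cluster 8 was at 1253 and 1263 CPM in mIDH1, against 2696 and 2989 CPM in wtIDH1. In cluster 9 it was at 2394 and 1515 CPM in mIDH1, against 4091 and 3142 CPM in wtIDH1. In cluster 10 it was at 1126 and 787 CPM in mIDH1, against 1218 and 866 CPM in wtIDH1. The genotypes were apart in clusters 8 and 9 and overlapped in cluster 10, where the fitted fold change was 0.10. Of the genes tested in neutrophils, 28% in cluster 8 and 26.2% in cluster 9 were likewise lower in both mIDH1 libraries.

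Csf2rb in cluster 9 was at 1608 and 1354 CPM in mIDH1, against 323 and 818 CPM in wtIDH1. It rose there by 1.71 on the log2 scale (edgeR adjusted p = 0.0262). Csf1 in cluster 9 was at 294 and 252 CPM in mIDH1, against 86.1 and 98.2 CPM in wtIDH1, and rose by 1.92 (edgeR adjusted p = 0.0235). These were the 2 members called of 5 tested in cluster 9, where 5.7% of genes were called. The wtIDH1 levels of Csf1 there rest on 4 and 6 UMIs, in 3 cells of each library. They lie near the floors of 64.6 and 49.1 CPM. In clusters 8 and 10 the Csf2rb levels of both mIDH1 libraries were also above both wtIDH1 libraries, at 612 and 792 CPM against 406 and 436 CPM, and at 1133 and 1013 CPM against 669 and 768 CPM. The share of genes above in both mIDH1 libraries was 14.8% in cluster 8, 24.1% in cluster 9 and 26.8% in cluster 10. By edgeR, 0 of 5 members were called in cluster 8 (0.572% of genes) and in cluster 10 (0.0259%), and 2 and 1 had an unadjusted p under 0.05, namely Csf2rb in both and Csf3r in cluster 8.

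**Figure D3:**
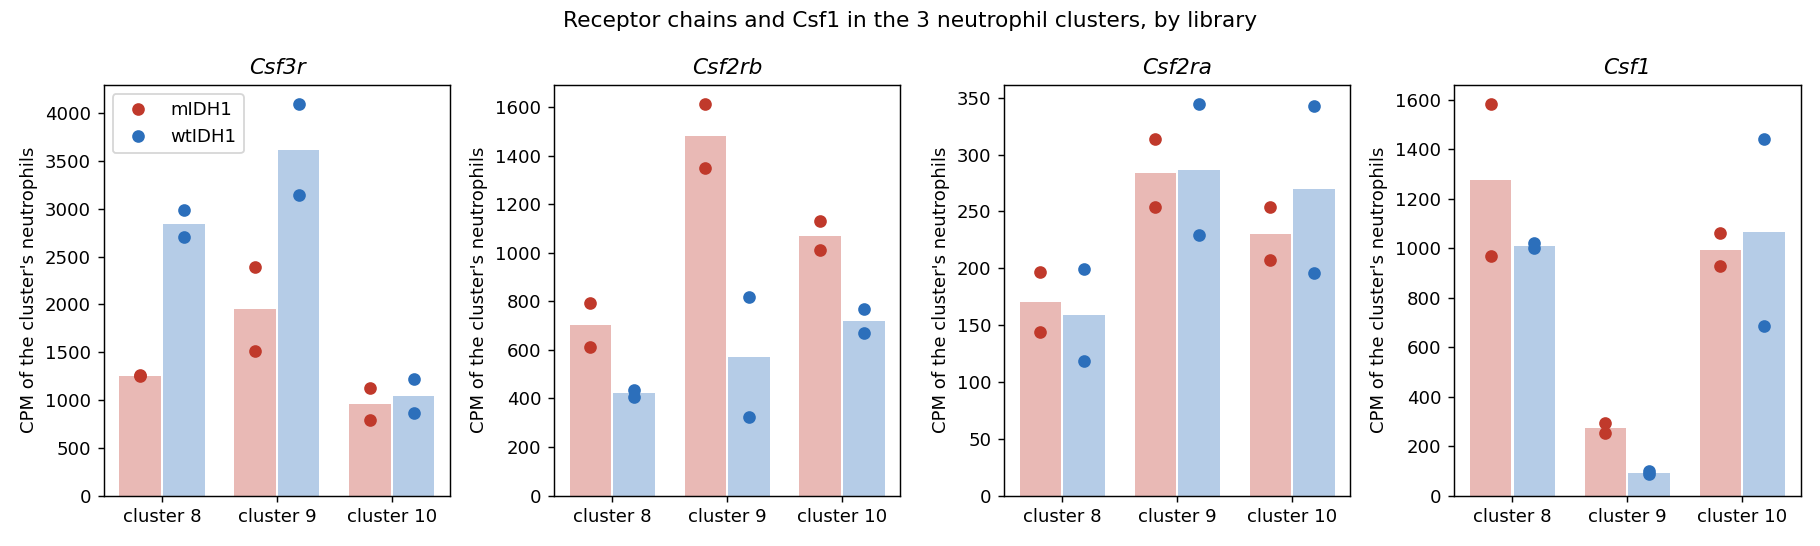
Levels of Csf3r, Csf2rb, Csf2ra and Csf1 (CPM) in the 3 neutrophil clusters, with 1 point per library and bars at the mean of each genotype, mIDH1 (red) left of wtIDH1 (blue). Csf2rb is higher in mIDH1 in each cluster, and Csf3r is lower in mIDH1 in clusters 8 and 9 while the genotypes overlap in cluster 10.

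Within classes, few member differences passed the test. By edgeR, 0 of 5 members tested were called in neutrophils, where 0.19% of genes were called, and 1 of them had an unadjusted p under 0.05. Likewise 0 of 5 were called in monocytes (12% of genes), macrophages (10.5%), microglia (1.51%) and dendritic cells (0.18%). Csf2rb had an unadjusted p under 0.05 in monocytes and macrophages, and no member did in microglia, dendritic cells or T cells. In T cells 0 of 6 were called (6.28% of genes), and in NK cells, where 6.72% of genes were called, no member passed the filter on low counts. DESeq2 called Csf3 in tumour cells and Csf2rb in neutrophils, and no other member within a class. Macrophages of the 2 genotypes came mostly from different clusters. Cluster 4 held 461 and 345 kept cells in mIDH1, against 88 and 88 in wtIDH1, and cluster 2 held 98 and 41 in mIDH1, against 318 and 476 in wtIDH1. In monocytes the 5 fold changes lay between 0.18 and 0.54, in macrophages between 0.22 and 0.52, and in microglia between 0.17 and 0.65. Csf2rb in monocytes (0.48, SE 0.22, adjusted p = 0.169) and in macrophages (0.52, SE 0.22, adjusted p = 0.154) had the lowest edgeR p in those classes.

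Over all kept cells, Csf3r was at 182 and 311 CPM in mIDH1, against 109 and 110 CPM in wtIDH1 (log2 fold change 1.39, edgeR adjusted p = 0.0545). Without the neutrophils it was at 59.6 and 53.0 CPM in mIDH1, against 81.7 and 68.6 CPM in wtIDH1, and the fold change was -0.30 (edgeR adjusted p = 0.199). Csf1r over all kept cells was at 298 and 203 CPM in mIDH1, against 421 and 389 CPM in wtIDH1, with a log2 fold change of -0.53 (edgeR adjusted p = 0.107). Both mIDH1 libraries were lower, as were 40.8% of all genes.

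**Figure D4:**
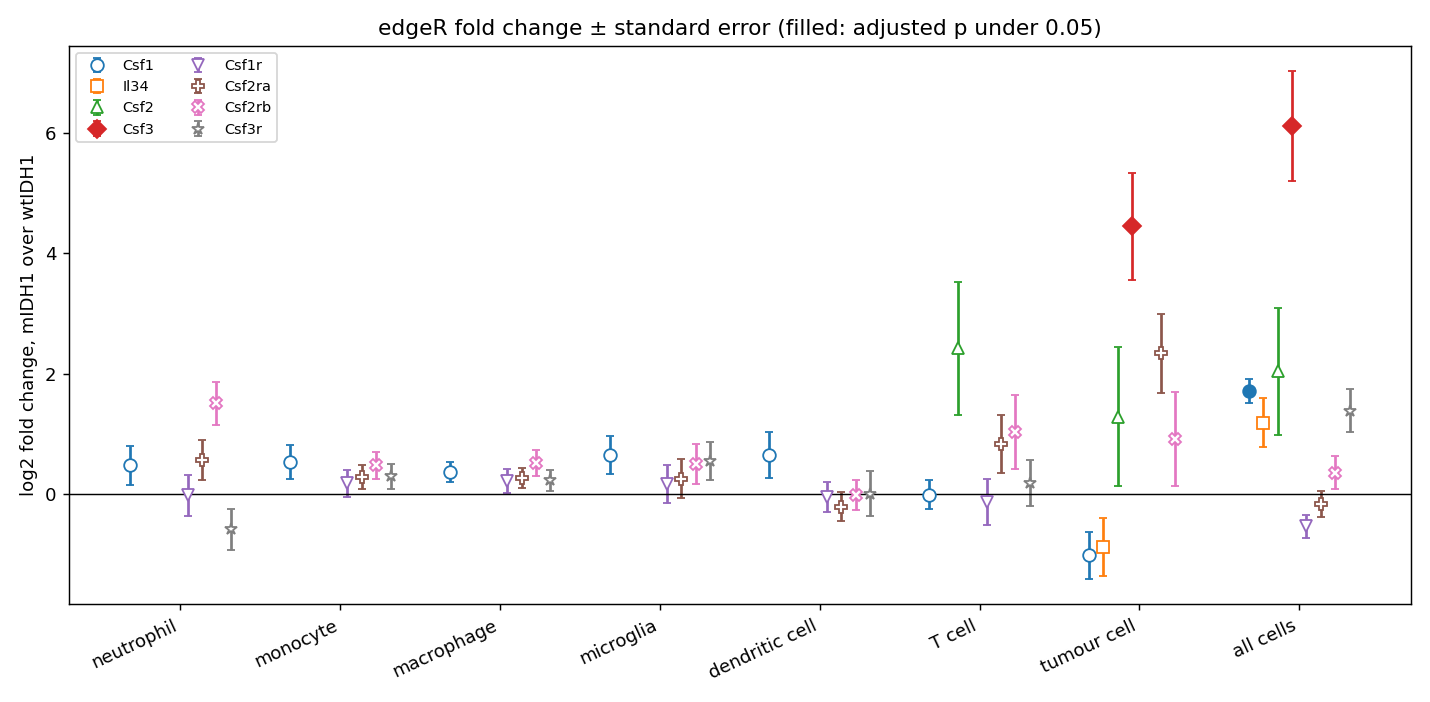
Fitted log2 fold changes of the members, mIDH1 over wtIDH1, with standard errors, by class and over all cells, with filled symbols for an adjusted p under 0.05. Csf3 in tumour cells, at 4.45, is the 1 called member within a class, and Csf2rb in neutrophils is at 1.51 with an adjusted p of 0.0905.

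Genes downstream of the receptors were counted on fixed lists. The list of G-CSF and STAT3 response genes had 11 members that rose and 1 that fell of 17 tested in monocytes, with a median log2 fold change of 1.20, against -0.03 for all genes. In macrophages 10 of 17 rose and none fell (median 1.35), and in microglia 6 of 16 rose (median 1.08). These compare with 12%, 10.5% and 1.51% of all genes called in monocytes, macrophages and microglia. In neutrophils 0 of 17 were called by edgeR and 6 had an unadjusted p under 0.05 (median 0.28). In dendritic cells 1 of 11 rose, where 0.18% of genes were called. It was the neutrophil marker S100a8 (3.61), which was not called at 5% mitochondrial UMIs. In tumour cells 6 of 11 rose (median 1.01), where 11.2% of genes were called. Among them were the neutrophil markers S100a8, S100a9 and Lcn2. S100a8, at 0 and 0.885 CPM in wtIDH1, entered that test through the mIDH1 libraries. In T cells 3 of 11 rose and 2 fell (6.28% of genes called), and in NK cells 2 of 8 rose and 1 fell (6.72%). Those leading in monocytes were Retnlg (5.32), S100a9 (3.82), S100a8 (3.66) and Wfdc21 (4.03 on the log2 scale).

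Of these 17 genes, 9 are also neutrophil markers. The summed level of all neutrophil markers was 2540 and 3603 CPM in mIDH1 monocytes, against 931 and 816 CPM in wtIDH1 monocytes. In macrophages it was 1222 and 3176 CPM in mIDH1, against 676 and 604 CPM in wtIDH1. In microglia it was 6624 and 7186 CPM in mIDH1, against 342 and 321 CPM in wtIDH1. In tumour cells it was 62.6 and 284 CPM in mIDH1, against 6.27 and 3.54 CPM in wtIDH1. S100a8, S100a9 and Lcn2 could therefore pass the filter on low counts in tumour cells only with the mIDH1 libraries. They had to differ to enter that test. The part of neutrophil RNA in the response list was not tested. Of the 8 other list genes, 4 rose in monocytes and 3 in macrophages, and 0 of 7 did so in microglia by edgeR. In tumour cells 3 of 7 rose. In T cells 2 of 6 fell and none rose, and in NK cells 1 of 6 fell and none rose. This split was made after the values were seen.

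Feedback inhibitors of cytokine receptors include the SOCS proteins, which block JAK kinases. In monocytes 3 of 13 rose and 1 fell, where 12% of all genes were called. Socs3, the inhibitor that acts on the G-CSF receptor, was at 584 and 559 CPM in mIDH1 monocytes, against 314 and 247 CPM in wtIDH1 monocytes. It rose by 1.26 on the log2 scale (edgeR adjusted p = 0.0017). Socs1 rose by 1.32 and the adaptor gene Dok2 by 1.48, while Socs2, a STAT5 target, fell by 1.29. In macrophages 4 of 13 rose, namely Dok2, Cblb, Socs3 and Socs1, where 10.5% of genes were called. In microglia 1 of 12 rose, Socs1 (1.51% of genes). In tumour cells 1 of 11 rose, a share below the 11.2% of all genes called there. It was Socs3, at 54.2 and 53.3 CPM in mIDH1, against 23.8 and 20.4 CPM in wtIDH1.

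Few signal transducers of the receptors were called. Tyrobp, the adaptor DAP12, rose in monocytes (1.33), macrophages (0.90) and NK cells (1.21). It was the 1 of 21 list members called in each of monocytes and macrophages, a share below the 12% and 10.5% of all genes called there. None of 20 in neutrophils, 21 in microglia and 21 in dendritic cells was called by edgeR, and 4, 1 and 4 had an unadjusted p under 0.05. Of the lineage transcription factors, Irf8, which favours monocytes over granulocytes, was the 1 of 12 called in neutrophils. It was at 33.4 and 14.8 CPM in mIDH1, against 123 and 123 CPM in wtIDH1, and fell by 2.0 on the log2 scale (edgeR adjusted p = 0.0472, where 0.19% of genes were called). Under the strict gate, which also needs more UMIs of a cell's own markers than of any other class, it was -1.94 and no longer passed (edgeR adjusted p = 0.0828). The summed macrophage markers were also lower in the mIDH1 neutrophils, at 3981 and 1716 CPM, against 4407 and 4802 CPM in wtIDH1. Among all genes tested in neutrophils, 40.5% were lower in both mIDH1 libraries, and so were 9 of the 15 macrophage markers. C1qa among them was at 281 and 52.8 CPM in mIDH1, against 684 and 627 CPM in wtIDH1. The part of macrophage RNA in the Irf8 difference was not tested. In macrophages 3 of 14 rose and 2 fell (10.5% of genes called), among them Cebpe (2.45) and Klf4 (1.54), which rose, and Gfi1 (-2.39) and Cebpa (-0.60), which fell. These act in granulocyte and monocyte differentiation.

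On the GM-CSF and STAT5 list, Itgax, which encodes the integrin CD11c, fell in monocytes (-1.47), macrophages (-1.28) and microglia (-1.51). In monocytes 3 of 10 list genes were called lower, where 12% of all genes were called, and the others were Socs2 and Ccr7. Ccr7 was at 0 and 0 CPM in mIDH1, where a count of 0 allows up to 1.34 and 1.21 CPM, against 5.58 and 9.52 CPM in wtIDH1. It entered the test through the wtIDH1 libraries and had to differ, and DESeq2 did not call it. Arg1, which encodes arginase 1, rose by 1.60 in macrophages, and the chemokine gene Ccl17 rose by 2.01 in dendritic cells. Each was the 1 gene of 12 that rose there, where 10.5% and 0.18% of all genes were called. Arg1 was among the leading genes of macrophage cluster 4, and the part of cluster makeup was not tested. It also rose in T cells (2.64), NK cells (1.43) and tumour cells (2.52). Without the second wtIDH1 library, the Arg1 calls in NK cells and tumour cells ended. Among other genes of the receptor families, Sdc1 (syndecan 1) rose by 2.72 in macrophages. Il5ra encodes the alpha chain of the IL-5 receptor, which pairs with CSF2RB. In tumour cells it was at 119 and 59.4 CPM in mIDH1, against 20.1 and 0 CPM in wtIDH1 (log2 fold change 3.62, edgeR adjusted p = 0.019). Its count was 0 in the second wtIDH1 library, so it could pass the filter on low counts only with the mIDH1 libraries. DESeq2 did not call it.

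Some of these calls ended when 1 library was left out. Without the second wtIDH1 library, Socs3 was not called in monocytes, macrophages or tumour cells, and neither was Il5ra in tumour cells. Tyrobp in monocytes was lost without either wtIDH1 library, and Tyrobp and Cebpa in macrophages without either wtIDH1 library or the second mIDH1 library. Socs1 in macrophages and microglia was lost without the second mIDH1 or the second wtIDH1 library. Itgax in microglia was lost without the first wtIDH1 library, and Ccl17 in dendritic cells without that library or the second mIDH1 library. Under the strict gate, Socs1, Socs3, Tyrobp and Cebpa were not called in macrophages. Neither were Socs1 and Itgax in microglia or Arg1 in NK cells. DESeq2 did not call Cebpa in macrophages or Arg1 in NK cells. Dok2 and Cblb in macrophages were called under every alternative. None of the named list genes changed sign under the alternatives run.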

How the data were processed

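The deposited values are UMI counts per gene and cell barcode. Per the labels' protocols, the authors made them with Cell Ranger 3.1, using STAR alignment to mm10 and aggregation to equal depth, while the matrix header names software 3.0.0. Genes were matched by symbol. The members and gene lists were chosen with earlier results of these data known.

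Cells with at least 200 genes and at most 10% mitochondrial UMIs were kept. Doublets were scored per library with Scrublet in scanpy 1.11.5, whose automatic threshold marked at most 3 per library, so the highest scores were removed instead, at a rate assumed from the number of barcodes (90 to 142 per library). Cells were clustered on 2000 variable genes without the members (30 components, 15 neighbours, Leiden resolution 1). Clusters were named from at least 3 fixed markers. Gated cells needed 2 marker UMIs, and tumour cells also a UMI of Nes or Sox2.

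UMIs were summed per library and class with at least 20 cells per library and tested with edgeR 4.0.16 (TMM, low-count filter, quasi-likelihood, Benjamini-Hochberg over all genes tested, threshold 0.05), checked on simulated data. The tumour class was added to the tested classes after the data were seen. Cells are not replicates. Some list results are not reported here. Named were all members, Csf2rb2, up to 4 called list genes of lowest p per class, and up to 3 genes of highest correlation per member, on log2(CPM + 1). Differences between classes carry no test, since classes come from the same cells. Alternatives were DESeq2 1.42.0, scaling by library totals, no low-count filter, other gates, 5% mitochondrial UMIs, a replicate block and leaving out each library. Intervals and floors (3 counts) cover counting error only.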

Additional observations from a re-analysis of the deposited data

Results flagged for a closer look

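The genotype difference of Csf2rb was larger in neutrophils than in macrophages by 1.25 on the log2 scale, and this interaction passed the edgeR test (adjusted p = 0.0174). It no longer passed when libraries were scaled by totals (0.225), or without the second mIDH1 library (0.103) or the first or second wtIDH1 library (0.591 and 0.223). Barcodes that the cell filters left out held Csf1 and Csf3 above the wtIDH1 level in both mIDH1 libraries, and Csf2 and Il34 above it in the second mIDH1 library alone. They held 747 and 361 Csf1 UMIs in mIDH1, or 197 and 182 CPM, against 58.2 and 76.6 CPM in wtIDH1. For Csf3 they held 13 and 4 UMIs in mIDH1, against 0 and 0 in wtIDH1. For Csf2 they held 10 and 155 UMIs in mIDH1, or 2.64 and 78.1 CPM, against 0.895 and 4.16 CPM in wtIDH1, and 1 barcode of high mitochondrial share held 107 of the 155. For Il34 they held 0 and 4 UMIs in mIDH1, or 0 and 2.01 CPM, against 1.79 and 0.416 CPM in wtIDH1.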

How the results depend on the processing

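Of 554 alternative values for the members' fold changes, 468 kept their direction and side of the threshold, 29 newly passed, 7 no longer passed and 50 changed sign. The cause was not tested. With no replicate paired by its number (correlations of same-numbered deviations -0.15 to 0.10), the replicate block is only an alternative. With the block, genes called numbered 130 in neutrophils (14 without it), 152 in dendritic cells (16), 1076 in T cells (607) and 1784 in tumour cells (1154), and members called 1 in T cells (0) and 3 in tumour cells (1). Levels from all deposited barcodes without doublet removal were not run, since removed barcodes have no cluster. Settings added after seeing the data were the tumour class, single neutrophil clusters, and leaving out shared barcodes, top Csf3 cells or a class. Depth was low in the wtIDH1 neutrophils (235334 and 333405 UMIs), the microglia of the second mIDH1 library (325067) and NK cells (414287 to 922063), in which no member passed the low-count filter.

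DESeq2 called 1 member in neutrophils and 4 over all cells (2 with edgeR), and 137, 742 (1126), 165, 167 (447) and 2912 (1878) genes in neutrophils, monocytes, dendritic cells, NK cells and all cells. It put Csf2rb in dendritic cells and Csf1 in T cells at 0.01 each. Scaling by library totals, which moved the median of all genes by -0.43 to -0.17, called 2 members in neutrophils and 288, 1795, 1790 (1141) and 1001 genes in neutrophils, monocytes, macrophages and T cells. Under it Csf1r was at -0.06 in monocytes, -0.07 in macrophages and -0.11 in microglia, Csf2ra at -0.03 in macrophages and -0.02 in microglia, and Csf3r at -0.07 in macrophages, -0.21 in dendritic cells and -0.06 in T cells. The interactions were then -0.03 for Csf1 and -0.37 for Csf1r in neutrophils, 0.00 for Csf2ra between macrophages and microglia, and 0 members were called (1). Without the low-count filter, 1 member was called in neutrophils, 1 in T cells and 3 in tumour cells, with 393, 2235, 313 (121), 431, 1289 and 2002 genes in neutrophils, macrophages, microglia, dendritic cells, T cells and tumour cells, and 144 (79) in the macrophage to microglia interaction. Csf1r was then 0.12 in neutrophils and Csf3r -0.04 in dendritic cells. The block put Csf1 in T cells at 0.01.

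Cluster names alone called 2 members in tumour cells, 182 genes in microglia and 41 in dendritic cells, with Csf1r at 0.03 in neutrophils, the Csf2ra interaction of macrophages and microglia at -0.01 and tumour cell Csf1r at 4.45 CPM (2.77). The strict gate called 4, 715, 39 and 120 genes in neutrophils, macrophages, microglia and dendritic cells. It put Csf1 at 0.00 in monocytes, -0.04 in microglia and 0.04 in T cells, Csf2ra at -0.03 in microglia, and Csf1r and Csf2rb at 0.38 and 0.09 in dendritic cells. Its mean levels were 18.4 CPM for Csf1 in monocytes (31.8), 12.7 in dendritic cells (19.5), 179 for Csf2ra (184) and 57.6 for Csf3r (69.0) in macrophages, 1783 for Csf1r in microglia (1523), 110 for Csf1r (141) and 13.3 for Csf3r (19.4) in dendritic cells, and 5.99 for Csf3r in T cells (10.6). At 5% mitochondrial UMIs, 101, 5 and 148 genes were called in neutrophils, dendritic cells and NK cells, Csf1r in neutrophils was 0.19, and Csf3r -0.06 in dendritic cells and -0.95 in T cells. Levels were then 191 CPM for Csf2ra in microglia (171), 18.1 for Csf3r and 6.62 for Csf1r (9.09) in T cells, and 5.3 for Csf2 (3.32) and 8.37 for Csf2rb (6.69) in NK cells. Without shared barcodes 2 members were called in tumour cells. Clusters 8, 9 and 10 alone called 34, 154 and 1 genes, and cluster 9 called 2 members. Csf1r was 0.58 in cluster 9 and 0.01 in cluster 10, and Csf3r 0.10 in cluster 10. All cells without neutrophils called 1 member and 2834 genes, with Csf2rb at -0.24 and Csf3r at -0.30. All cells without tumour cells called 0 members and 1 gene, with Csf2ra at 0.18. Thinning gave shares of 37.0% for Csf1 (46.2%), 42.7% for Csf2rb (59.6%) and 71.4% for Csf3r (82.4%) in neutrophils, and 66.1% and 0.64% for Csf1r in microglia and T cells.

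Leaving out each library in turn, members called ranged 0 to 2 in neutrophils and tumour cells, 0 to 1 in monocytes, macrophages, T cells and the neutrophil to macrophage interaction, and 1 to 4 over all cells. Genes called ranged 53 to 792 in neutrophils, 322 to 1700 in monocytes, 294 to 2017 in macrophages, 87 to 348 in microglia, 2 to 319 in dendritic cells, 164 to 1511 in T cells, 123 to 976 in NK cells, 113 to 1108 in tumour cells and 120 to 2848 over all cells, and 29 to 240 (178) and 73 to 163 in the interactions. Fold changes ranged, for Csf1, -0.11 to 0.99 in monocytes and -0.33 to 0.42 in T cells. For Csf2 they ranged -1.49 to 3.63 in T cells and -0.58 to 2.94 over all cells. For Csf1r they ranged -0.33 to 0.40 in neutrophils, 0.00 to 0.39 in microglia, -0.24 to 0.13 in dendritic cells and -0.38 to 0.26 in T cells. For Csf2ra they ranged 0.00 to 0.56 in microglia and -0.43 to 0.05 over all cells. For Csf2rb they ranged -0.09 to 0.06 in dendritic cells, -0.05 to 2.71 in tumour cells and -0.07 to 0.67 over all cells. For Csf3r they ranged -0.23 to 0.32 in dendritic cells and -0.23 to 0.76 in T cells. Interactions in neutrophils ranged -0.01 to 0.64 for Csf1 and -0.18 to 0.31 for Csf1r. Between macrophages and microglia they ranged -0.55 to 0.04 for Csf1, -0.27 to 0.32 for Csf1r, -0.09 to 0.18 for Csf2ra and -0.41 to 0.51 for Csf2rb. A library left alone in its genotype is assumed to vary like the others.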
